A study of Homo sapiens with 24 samples.

Results

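Interferon-stimulated genes (ISGs) are genes that a cell transcribes more strongly once it has sensed interferon. The ISGs described here are 39 of the 57500 genes in the count tables. They were taken from a list of gene symbols that uses no measured value but was chosen with earlier results of these data known. They were matched to Ensembl identifiers through the GENCODE v29 annotation, where each symbol matched 1 identifier. By role they are 4 IFIT genes, 6 OAS and MX genes, ISG15 with its enzymes and a relative (5 genes), 3 sensors of cytosolic RNA, 5 transcription factors, 6 other antiviral effectors, 6 genes of small interferon-inducible proteins including XAF1, the 3 genes PARP9, DTX3L and PARP14, and 1 chemokine gene, CXCL10.

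RNA-Seq was performed on spheroids of FaDu and SAS, 2 established human cell lines of head and neck squamous cell carcinoma, grown for 4 days. Spheroids of each line were left untreated (Control), irradiated (RT, with 7 Gy in FaDu but 10 Gy in SAS), heated (HT, 42.5 °C for 60 min) or given both treatments at the same doses (HT + RT), and RNA was collected 0.5 h after treatment. Each of the 8 conditions had 3 libraries, 24 in all. By the study's methods the 3 come from separate experiments, while libraries of different conditions may share one, so an adjusted p measures a difference against the spread between experiments with established lines, not between patients or tumours. The RT dose differed between the lines, so line and dose cannot be told apart where irradiated FaDu and SAS spheroids are compared.

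The deposited counts summed to between 15203484 and 29452514 reads per library, with a median of 18378943. Levels are CPM (read counts relative to the library total) scaled by the TMM method over the 24 libraries, and means are given ± SD with n = 3. Differences are log2 fold changes from the quasi-likelihood test of edgeR, fitted on the libraries compared, with p-values adjusted by the Benjamini-Hochberg method over all genes tested. A gene is called altered at an adjusted p under 0.05 together with an absolute log2 fold change over 1, which are also the thresholds of the study.

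The treatment labels were checked with 6 heat shock genes. HSPA6, a strictly heat-inducible HSP70 gene, stood at 0.525, 0.509 and 0.294 CPM in the FaDu Control libraries and at 3932, 4232 and 4988 CPM in the FaDu HT libraries. The heated and unheated libraries did not overlap for this gene, and all 6 heat shock genes were altered and higher in each of the 6 comparisons of heated with unheated spheroids. Their summed level was 804 ± 112 CPM in FaDu Control, 19110 ± 2340 in FaDu HT and 20250 ± 2180 in FaDu HT + RT. In SAS it was 1231 ± 111 CPM in Control, 18780 ± 1810 in HT and 20510 ± 983 in HT + RT. By RT against Control, edgeR called 0 of the 6 altered in either line, with 0 in FaDu and 1 in SAS at an unadjusted p under 0.05. Over all genes tested, 791 of 15552 in FaDu and 834 of 14680 in SAS were under that value.

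The labelled cell type was checked with 8 markers of squamous epithelium, 8 of fibroblasts and endothelial cells together, and 7 of leukocytes. The squamous markers summed to 9558 ± 202 CPM in FaDu Control and 3655 ± 159 CPM in SAS Control, with KRT17 the most abundant of the 8. The leukocyte markers summed to 8.67 ± 0.104 CPM in FaDu Control and 10.3 ± 1.16 CPM in SAS Control. CD14 was the most abundant of them, and PTPRC, CD3E, LYZ and CLEC4C were at or near 0 in the 24 libraries. The fibroblast and endothelial markers summed to 50.2 ± 5.91 CPM in FaDu Control and 61.0 ± 8.24 CPM in FaDu HT. In SAS they summed to 18.3 ± 4.50 CPM in Control, 40.5 ± 7.30 in HT and 42.1 ± 5.98 in HT + RT, and DCN, COL3A1 and COL1A2 were at or near 0. The endothelial marker CDH5 was the most abundant of the 8 in SAS Control, at 14.5 ± 4.86 CPM. The SAS increase came with the collagen gene COL1A1, at 1.20, 0.969 and 1.83 CPM in Control and 30.5, 16.3 and 23.96 CPM in HT, and its part in the results below was not tested.

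Interferons of type I and type III bind receptors on epithelial cells and signal through the kinases JAK1 and TYK2 to STAT2, which acts with IRF9 on the interferon-stimulated response element (ISRE) in the promoters of ISGs. Cells make interferon when sensors such as DDX58 and IFIH1 (for RNA) or CGAS (for DNA) detect nucleic acid in the cytosol. The proteins that ISGs encode block steps in the replication of viruses, and carcinoma lines are known to vary in how strongly they transcribe ISGs without added interferon.

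The libraries of a condition were compared with each other. Among genes over 1 CPM, FaDu library 1 had the highest level of its 3 replicates for 27 of 38 ISGs in Control, 31 of 38 in RT, 30 of 39 in HT and 32 of 39 in HT + RT. SAS library 1 had the highest level for 25 of 30 in Control, 17 of 29 in RT, 13 of 29 in HT and 20 of 30 in HT + RT. Over all genes, the mean chi-square per gene between FaDu library 1 and another library of its condition was 15.1 to 22, and between libraries 2 and 3 it was 3.51 to 5.09. In SAS the same measure ranged from 4.61 to 11.8 over all pairs. Each count of altered ISGs was therefore also made without the FaDu libraries numbered 1, and the values are given where they differ.

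The 39 ISGs together took 9537, 8831 and 8797 CPM in the FaDu Control libraries. In the SAS Control libraries they took 1218, 1028 and 1098 CPM. The lines did not overlap, and the 3 values of each line lay close together beside the distance between the lines. The summed level in FaDu was 9055 ± 418 CPM in Control, 9132 ± 706 in RT, 9161 ± 679 in HT and 9028 ± 636 in HT + RT. In SAS it was 1115 ± 96.1 CPM in Control, 1125 ± 22.1 in RT, 960 ± 62.9 in HT and 987 ± 59.2 in HT + RT. The FaDu conditions overlapped throughout, and in SAS the 3 HT values of 1024, 958 and 898 CPM lay below the 3 Control values. The lowest SAS Control value was 1028 CPM, and SAS HT + RT reached 1047 CPM and so overlapped with Control. The heatmap of levels by library shows the same split by line for most genes, with IRF1 as an exception. In bulk RNA, fewer cells that carry a transcript and less of it per cell cannot be told apart.

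**Figure D1:**
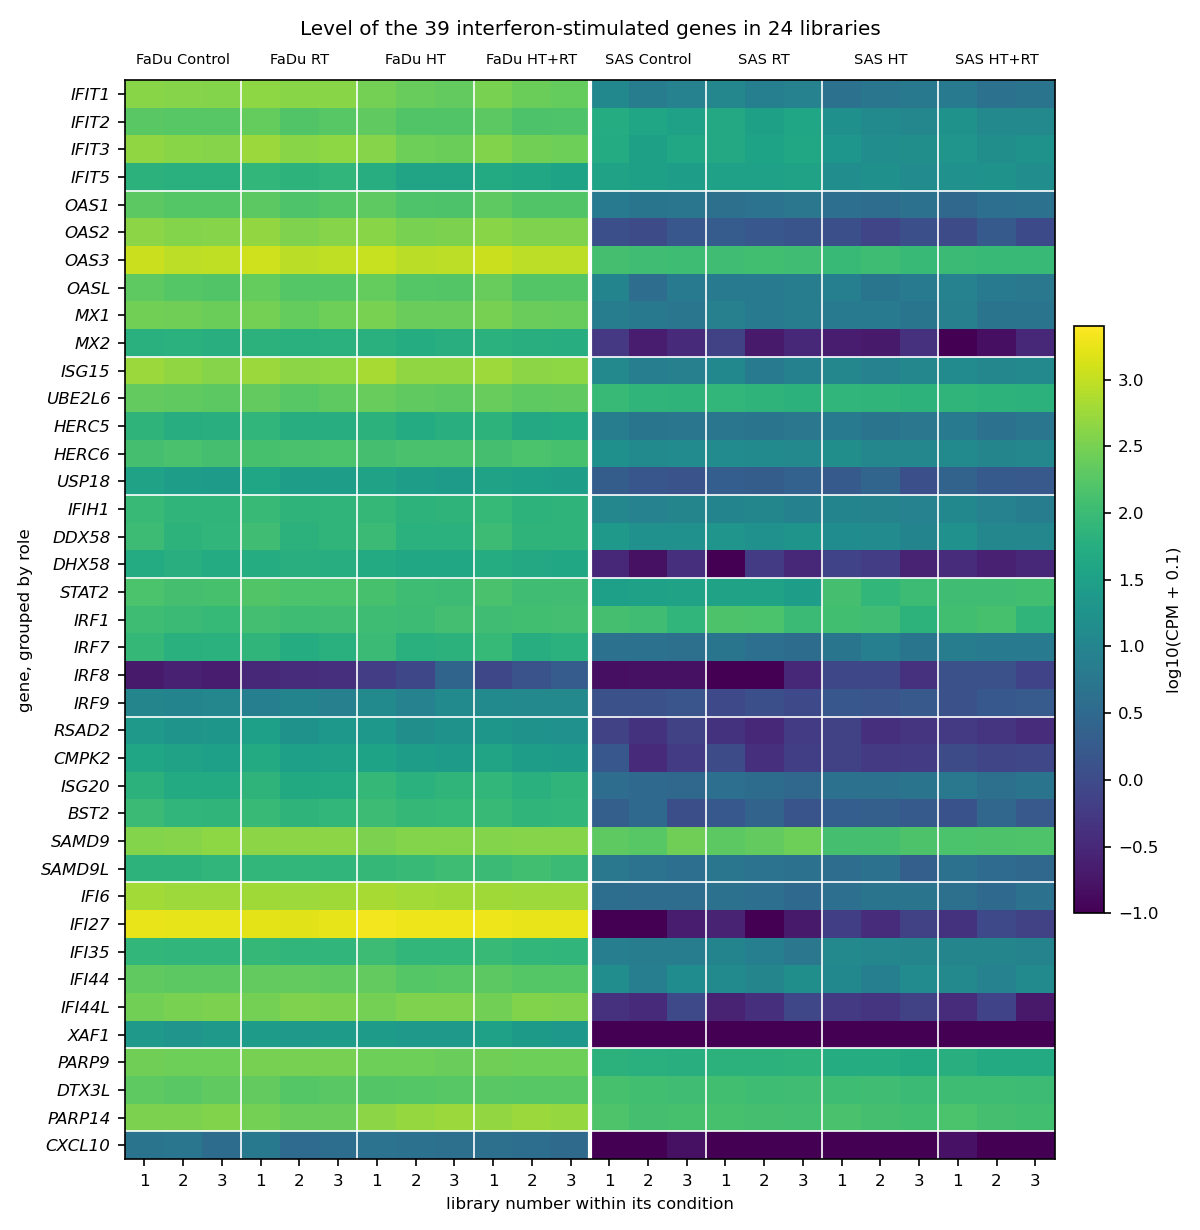
Level of each of the 39 ISGs (vertical axis, grouped by role) in each of the 24 libraries (horizontal axis, by condition), as log10 of CPM plus 0.1. Most genes are at higher levels in the 12 FaDu libraries than in the 12 SAS libraries, and XAF1 is at 0 in all 12 SAS libraries.

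Levels of different genes are compared per length, as CPM per kb of annotated exon. In FaDu Control the order was led by IFI6 at 678 ± 22.1 CPM per kb, ISG15 at 499 ± 74.4 and IFI27 at 416 ± 10.3, followed by IFIT3 at 162 ± 15.4 and OAS3 at 121 ± 12.6. The libraries of IFI6, ISG15 and IFI27 did not overlap, although the lowest ISG15 value (429 CPM per kb) was next to the highest IFI27 value (428 CPM per kb). In SAS Control the order was led by UBE2L6 at 36.2 ± 4.96 CPM per kb and SAMD9 at 32.0 ± 7.30, which overlapped, then DTX3L at 20.7 ± 1.60, IFIT3 at 15.7 ± 3.82 and OAS3 at 14.0 ± 1.17. The lowest ISG in FaDu Control was IRF8 at 0.0248 ± 0.00465 CPM per kb, and in SAS Control it was XAF1 at 0.

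The comparison of untreated FaDu with untreated SAS spheroids addresses the baseline difference between the lines. Of the 39 ISGs, 38 passed the filter on low counts and 35 of these were altered, against 38.1 percent of the 15810 genes tested. All 35 were higher in FaDu, against 21.2 percent of the genes tested that were altered and higher in FaDu. The median log2 fold change was 4.10 over the 38 ISGs tested and 0.03 over all genes tested, and it stayed at 4.10 with XAF1, which had 0 counts in SAS, set at its lower bound. MX2, DHX58, RSAD2, CMPK2, IFI27, IFI44L, XAF1 and CXCL10 passed the filter through their FaDu libraries alone, and the values of these 8 are given below without a p. Genes that passed through a single group are called filter-selected below, as the filter favours a difference in them without forcing a call. Of the 30 that passed in both lines, 27 were altered, with a median of 3.42. For counts of genes that passed in both lines, here and below, the matching share over all genes is not given. The 3 ISGs tested and not altered were IRF1, SAMD9 and DTX3L. The count of 35 was the same without the FaDu libraries numbered 1.

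**Figure D2:**
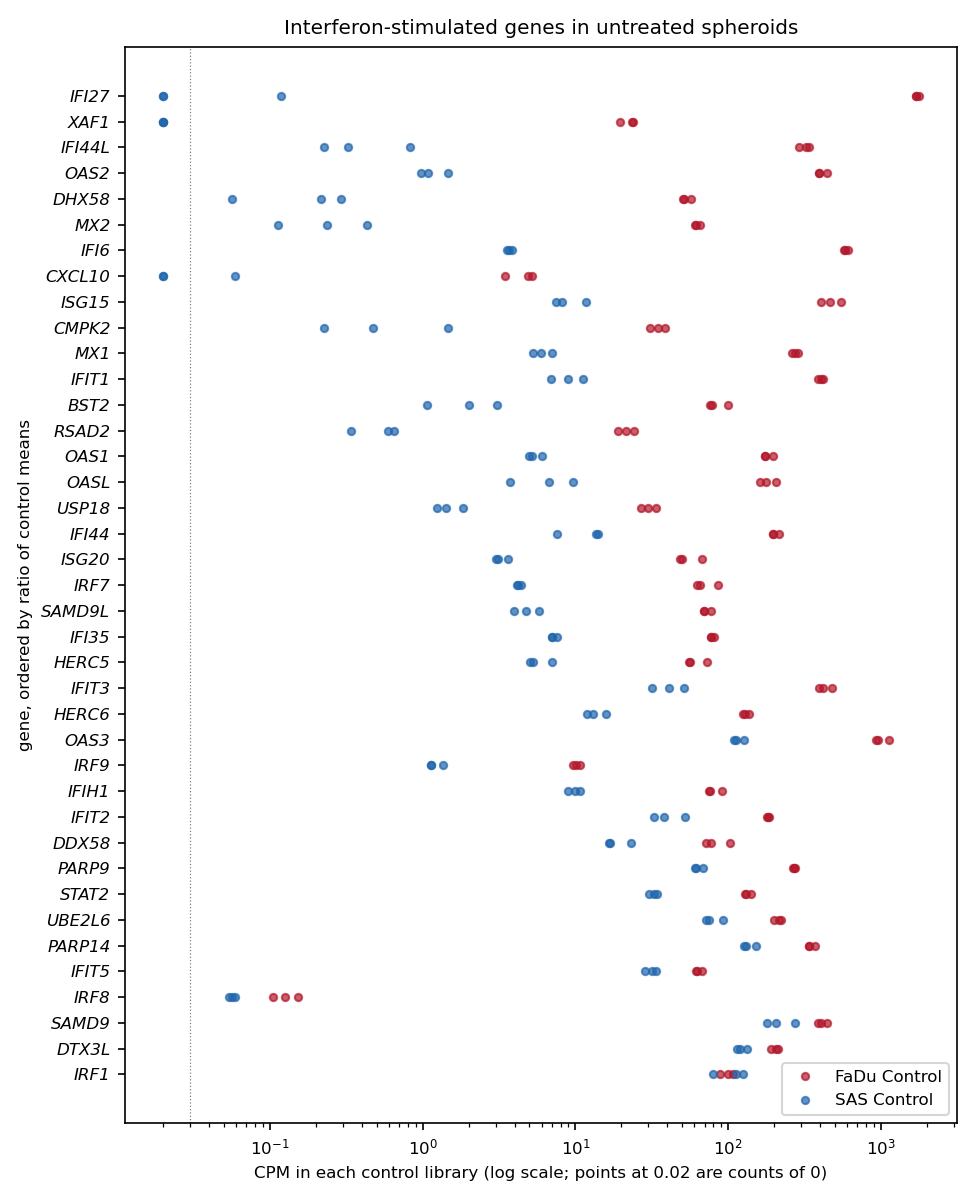
CPM on a log scale (horizontal axis) of each of the 39 ISGs (vertical axis, ordered by the ratio of the means) in the 3 FaDu Control and the 3 SAS Control libraries, 1 point per library, with counts of 0 drawn at 0.02. The lines lie apart for most genes and overlap for IRF1.

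The promoters of the ISGs were searched for the elements that interferon signalling uses. The search describes the genes of the list and was not a test of the difference between the lines. RefSeq promoter sequences on GRCh38.p14 were available for 32 of the 39 ISGs, with 44 promoters, and the 250 bases before each start were searched on both strands. The ISRE core GAAANNGAAA was found in 22 of the 44 promoters (50 percent), from 19 genes, and in 1061 of all 35116 promoters (3.02 percent). By role, a match was found for 3 of 3 IFIT genes, 2 of 3 OAS and MX genes, 2 of 4 genes of the ISG15 group, 1 of 2 sensors, 0 of 4 transcription factors, 4 of 6 effectors, 4 of 6 genes of the IFI and XAF1 group, 2 of 3 of the PARP group, and CXCL10. The gamma-activated site TTCNNNGAA was found in 9 of the 44 promoters (20.5 percent) and in 2306 of all promoters (6.57 percent), and 4 of its 10 matches in ISG promoters overlapped an ISRE match. The heat shock element GAANNTTCNNGAA was found in 0 of the 44 promoters and in 155 of all promoters (0.441 percent), while 1 of 8 promoters of the heat shock genes, that of HSPA6, held it. The windows around the ISRE matches are printed for the ISGs with the largest differences between the lines or an altered level after heating that had a match, with each match in capitals, read 5′ to 3′ on the strand of the gene. They are IFIT3 (chr10:89327831-89327894, + strand), IFIT5 (chr10:89414513-89414567, + strand), ISG15 (chr1:1013374-1013409, + strand), IFI6 (chr1:27672266-27672358, - strand), IFI27 (chr14:94110618-94110660, + strand), IFI44L (chr1:78620274-78620394, + strand) and CXCL10 (chr4:76023699-76023728, - strand). Promoters of IFIT2, OAS2, DHX58 and MX2 were not in the table.
IFIT3: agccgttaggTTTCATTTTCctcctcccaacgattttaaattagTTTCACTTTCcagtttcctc
IFIT5: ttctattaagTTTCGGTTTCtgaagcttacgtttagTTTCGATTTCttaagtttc
ISG15: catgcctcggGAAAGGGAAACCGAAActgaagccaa
IFI6: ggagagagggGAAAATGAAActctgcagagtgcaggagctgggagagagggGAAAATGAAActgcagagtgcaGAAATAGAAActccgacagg
IFI27: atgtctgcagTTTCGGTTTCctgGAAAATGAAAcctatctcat
IFI44L: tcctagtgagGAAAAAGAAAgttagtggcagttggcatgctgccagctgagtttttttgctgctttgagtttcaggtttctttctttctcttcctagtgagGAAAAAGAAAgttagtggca
CXCL10: tcatgttttgGAAAGTGAAAcctaattcac
In the windows, each from 1 promoter of the gene, IFIT3, IFIT5 and IFI27 hold 2 matches each, IFI6 holds 3 and IFI44L repeats a longer stretch around its match, whereas ISG15 has overlapping matches. The other IFIT3 promoter, not printed, holds 2 further matches, from 94 and 51 bases before its start. A match is a description of the letters and was not tested for binding.

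IFIT1, IFIT2, IFIT3 and IFIT5 encode proteins of tetratricopeptide repeats that bind foreign RNA or limit its translation. IFIT3, the most abundant of the 4, stood at 474, 418 and 395 CPM in FaDu Control and at 51.6, 31.5 and 41.1 CPM in SAS Control. IFIT5, the nearest to the threshold, stood at 67.4, 61.5 and 62.5 CPM in FaDu Control and at 33.6, 31.8 and 28.4 CPM in SAS Control. For both genes each FaDu library was above each SAS library. All 4 were altered between the untreated lines, with log2 fold changes from 1.06 (IFIT5) to 5.51 (IFIT1).

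OAS1, OAS2 and OAS3 make the short adenylate chains that switch on RNase L, OASL is their relative that aids RNA sensing, and MX1 and MX2 encode dynamin-like GTPases that trap viral particles. OAS2 stood at 440, 390 and 393 CPM in FaDu Control and at 1.09, 0.969 and 1.47 CPM in SAS Control. MX2 stood at 61.8, 65.4 and 60.7 CPM in FaDu Control and at 0.435, 0.114 and 0.236 CPM in SAS Control. The FaDu libraries were high and the SAS libraries near 0 for both genes, without overlap. OAS2 was altered (log2 fold change 8.46 ± 0.13 (SE), adjusted p = 5.62e-12), and MX2, which was filter-selected, had a fitted log2 fold change of 7.88. The most abundant, OAS3, had 1119, 931 and 949 CPM in FaDu Control and 127, 112 and 108 CPM in SAS Control, and its log2 fold change of 3.14 was the lowest of the 6. The 5 that passed the filter in both lines were altered.

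ISG15 encodes a ubiquitin-like protein that is linked to other proteins by UBE2L6 and HERC5 and removed by USP18, and HERC6 is a relative of HERC5. ISG15 stood at 543, 462 and 404 CPM in FaDu Control and at 11.8, 7.47 and 8.19 CPM in SAS Control. UBE2L6, the nearest to the threshold, stood at 221, 214 and 199 CPM in FaDu Control and at 92.0, 75.4 and 71.5 CPM in SAS Control. Library 1 was the highest of its condition for both genes in both lines, and the lines did not overlap. The difference was 1.44 for UBE2L6 and largest for ISG15 (log2 fold change 5.71 ± 0.17 (SE), adjusted p = 6.74e-10), and all 5 genes of the group were altered.

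The sensors DDX58 and IFIH1 detect viral RNA in the cytosol, and DHX58 adjusts their signalling. DHX58 stood at 50.3, 57.1 and 51.3 CPM in FaDu Control and at 0.218, 0.0570 and 0.295 CPM in SAS Control. DDX58, the most abundant by the mean over the 24 libraries and the nearest to the threshold, stood at 102, 71.1 and 77.5 CPM in FaDu Control and at 23.1, 16.5 and 16.9 CPM in SAS Control. The FaDu libraries were higher throughout. DDX58 and IFIH1 were altered, with 2.18 for DDX58 and 3.07 for IFIH1, and DHX58, which was filter-selected, had a fitted value of 8.11.

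STAT2 and IRF9 form the factor that binds the ISRE, IRF7 amplifies the transcription of interferon genes, and IRF1 and IRF8 drive further immune genes, IRF8 chiefly in blood cells. IRF1, the most abundant of the 5 by the same mean, stood at 108, 100 and 87.9 CPM in FaDu Control and at 124, 112 and 79.3 CPM in SAS Control. The lines overlapped for IRF1, which did not pass the test (log2 fold change -0.06 ± 0.14 (SE), adjusted p = 0.701). STAT2 stood at 141, 129 and 131 CPM in FaDu Control and at 30.4, 32.9 and 34.4 CPM in SAS Control, without overlap (log2 fold change 2.07 ± 0.075 (SE), adjusted p = 2.2e-09). IRF7 had the largest difference of the group, at 4.09, and IRF9 was also altered, at 3.10. IRF8 had 8 counts over the FaDu Control libraries and 3 over the SAS Control libraries, too few to be tested, a ratio of 2.26 with a 95 percent exact counting interval of 0.541 to 13.2. Such intervals, and the lower bounds below, cover counting error only.

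The other effectors are RSAD2, which makes a nucleotide that stops viral polymerases, CMPK2, its mitochondrial nucleotide kinase partner, ISG20, an RNA exonuclease, BST2, which tethers virus to the cell surface, and the related translation inhibitors SAMD9 and SAMD9L. CMPK2 stood at 38.8, 34.7 and 30.5 CPM in FaDu Control and at 1.47, 0.228 and 0.472 CPM in SAS Control. SAMD9, the most abundant of the 6 and the nearest to the threshold, stood at 387, 403 and 446 CPM in FaDu Control and at 204, 178 and 275 CPM in SAS Control. Neither gene overlapped between the lines, but the distance was far smaller for SAMD9. CMPK2, which was filter-selected, had a fitted log2 fold change of 5.58, and SAMD9 missed the threshold on fold change (log2 fold change 0.94 ± 0.13 (SE), adjusted p = 6.84e-05). CMPK2 overlaps RSAD2 on the opposite strand in the annotation, and the strand setting of the counting is not known, so reads from the overlap cannot be told apart.

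The genes IFI6, IFI27, IFI35, IFI44, IFI44L and XAF1 encode small interferon-inducible proteins, among them mitochondrial proteins that act on cell death (IFI6, IFI27) and a partner of the inhibitor of apoptosis XIAP (XAF1). IFI27 stood at 1775, 1704 and 1698 CPM in FaDu Control and at 0, 0 and 0.118 CPM in SAS Control. IFI44L stood at 291, 323 and 339 CPM in FaDu Control and at 0.326, 0.228 and 0.825 CPM in SAS Control. Both were among the higher ISGs in FaDu and close to 0 in SAS. IFI6 stood at 609, 577 and 575 CPM in FaDu Control and at 3.86, 3.59 and 3.65 CPM in SAS Control. XAF1 stood at 23.6, 19.7 and 23.8 CPM in FaDu Control and had no count in any of the 12 SAS libraries. For these genes too each FaDu library was above each SAS library. IFI27 had 107769 counts against 2 over the Control libraries, a ratio of 45600 with a counting interval of 12600 to 376000. XAF1 had 1404 counts against 0 and was at least 396-fold higher in FaDu, with the SAS group set at 3 counts. IFI27, XAF1 and IFI44L were filter-selected, and the fitted log2 fold change of IFI44L was 9.46. Of the 3 that passed the filter in both lines, all altered, IFI6 had the highest value (log2 fold change 7.34 ± 0.084 (SE), adjusted p = 2.35e-12) and IFI35 the lowest, at 3.47.

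PARP9 and DTX3L form a complex that marks histones with ubiquitin and raises interferon signalling, and PARP14 is an ADP-ribosyltransferase that modifies cytokine signalling. PARP14, the most abundant of the 3, stood at 336, 335 and 372 CPM in FaDu Control and at 152, 127 and 131 CPM in SAS Control. DTX3L, the nearest to the threshold, stood at 204, 191 and 210 CPM in FaDu Control and at 132, 119 and 114 CPM in SAS Control. The lines did not overlap for either. PARP9 (2.12) and PARP14 (1.38) were altered, and DTX3L, which overlaps PARP9 on the opposite strand in the annotation, missed the threshold on fold change (log2 fold change 0.76 ± 0.070 (SE), adjusted p = 2.36e-06).

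CXCL10 encodes a chemokine that draws T cells through the receptor CXCR3. It stood at 4.88, 5.20 and 3.44 CPM in FaDu Control and at 0, 0 and 0.0589 CPM in SAS Control. The level was low in FaDu and a single count was found over the 3 SAS Control libraries. The 277 counts against 1 gave a ratio of 234 with a counting interval of 41.7 to 9290.

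The difference between the lines was also tested within each treatment. After RT, 35 of 38 ISGs tested were altered, against 38.7 percent of the 16030 genes tested, all higher in FaDu, against 21.7 percent. After HT, 35 of 39 were altered, against 40.1 percent of 16453 genes, all higher in FaDu, against 21.9 percent. After HT + RT, 35 of 39 were altered, against 40.4 percent of 16599 genes, all higher in FaDu, against 22.1 percent. The medians over the ISGs tested were 4.01 after RT, 4.11 after HT and 4.02 after HT + RT, beside 0.03, 0.02 and 0.02 over all genes tested. Of these ISGs, 8 passed the filter through FaDu libraries alone after RT, 8 after HT and 7 after HT + RT, so they were filter-selected. Among those that passed in both lines, 27 of 30 were altered after RT (median 3.52), 27 of 30 after HT (3.59) and 28 of 32 after HT + RT (3.49). The genes were not identical in the 4 conditions. STAT2 was altered in Control and RT but not in HT (log2 fold change 0.15 ± 0.14, adjusted p = 0.371) or HT + RT (0.10 ± 0.087, adjusted p = 0.294). SAMD9 was altered in HT (1.53) and HT + RT (1.44) but missed the threshold in Control and RT. IRF8 was tested in HT and HT + RT only and was altered in neither. Without the FaDu libraries numbered 1, the counts were 35 after RT, 36 after HT and 35 after HT + RT.

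Irradiation against Control addresses the early effect of RT. In FaDu, edgeR called 0 of 38 ISGs altered, against 0.00643 percent of the 15552 genes tested, with 5 ISGs at an unadjusted p under 0.05 (791 over all genes tested) and 0 altered by DESeq2. In SAS, edgeR called 0 of 30 altered, against 0.0272 percent of the 14680 genes tested, with 0 at an unadjusted p under 0.05 (834 over all genes tested) and 0 by DESeq2. Over all genes with a count in the libraries compared, DESeq2 called 12 of 32294 altered in FaDu and 10 of 28775 in SAS. With the library number as a block, 28 genes were altered in FaDu (1 without the block) and 25 in SAS (4 without it), with no ISG among them. The 9 ISGs not tested in SAS were MX2, DHX58, IRF8, RSAD2, CMPK2, IFI27, IFI44L, XAF1 and CXCL10, each too low there. The log2 fold changes ran from -0.37 (PARP14) to 0.26 (IFIT5) in FaDu and from -0.38 (IRF9) to 0.44 (USP18) in SAS. PARP14 in FaDu stood at 336, 335 and 372 CPM in Control and at 308, 250 and 246 CPM in RT. Its RT libraries lay below its Control libraries, but the difference did not pass the test (log2 fold change -0.37 ± 0.091 (SE), adjusted p = 0.423). The median was 0.05 over the ISGs in FaDu and -0.01 in SAS, beside 0.00 over all genes tested in each.

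Heating was compared with no heating in libraries that do not overlap, as HT against Control and as HT + RT against RT. In FaDu, edgeR called 0 of 38 ISGs altered by HT against Control, against 4.97 percent of the 15879 genes tested, with 11 ISGs at an unadjusted p under 0.05 (4885 over all genes tested) and 1 (IRF8) altered by DESeq2. Over all genes with a count in these libraries, DESeq2 called 904 of 35428 altered. At an adjusted p under 0.05 with no limit on fold change, 5 ISGs passed (IFIT1, IFIT5, SAMD9L, IFI27 and PARP14), against 17.6 percent of the genes tested. By HT + RT against RT in FaDu, 1 of 39 was altered (IRF8, which passed the filter through the HT + RT libraries alone and so was filter-selected), against 5.39 percent of 15905 genes, and 9 passed on adjusted p alone (IFIT1, IFIT3, IFIT5, IRF8, IRF9, SAMD9L, IFI44, PARP9 and PARP14), against 19.3 percent. The FaDu counts rest partly on library 1. Without FaDu Control library 1, or without FaDu HT library 1, IRF8 was altered by HT against Control (1 ISG). Without FaDu RT library 1, or without all FaDu libraries numbered 1, 2 ISGs were altered by HT + RT against RT, IRF8 and PARP14 in the latter case.

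In SAS, 4 of 31 ISGs were altered by HT against Control (IFIT2, IFIT3, IFIT5 and STAT2), against 6.03 percent of the 15000 genes tested, and 9 passed on adjusted p alone (these 4 with IFIT1, DDX58, SAMD9, IFI35 and PARP9), against 23.6 percent. By HT + RT against RT, 4 of 32 were altered (IFIT2, IFIT3, STAT2 and IRF8, of which IRF8 passed the filter through HT + RT alone and was filter-selected), against 6.60 percent of 15125 genes, and 11 passed on adjusted p alone (these 4 with IFIT1, IFIT5, OAS3, DDX58, IRF7, SAMD9 and PARP9), against 27.8 percent. The ISGs not tested by HT against Control in SAS were MX2, DHX58, IRF8, CMPK2, IFI27, IFI44L, XAF1 and CXCL10. By DESeq2, IRF8 and IFI27 were added to the ISGs altered by HT against Control in SAS (6 in all), and IFI27 to those altered by HT + RT against RT (5 in all). Over all genes with a count, DESeq2 called 946 of 30344 by HT against Control and 1087 of 30439 by HT + RT against RT in SAS. The medians over the ISGs tested were -0.08 by HT against Control and -0.06 by HT + RT against RT in SAS, and -0.02 in both comparisons in FaDu, beside medians of 0.00 to 0.01 over all genes tested. The plot of both heat comparisons shows the altered genes at the ends of a range in which most ISGs lie near 0.

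**Figure D3:**
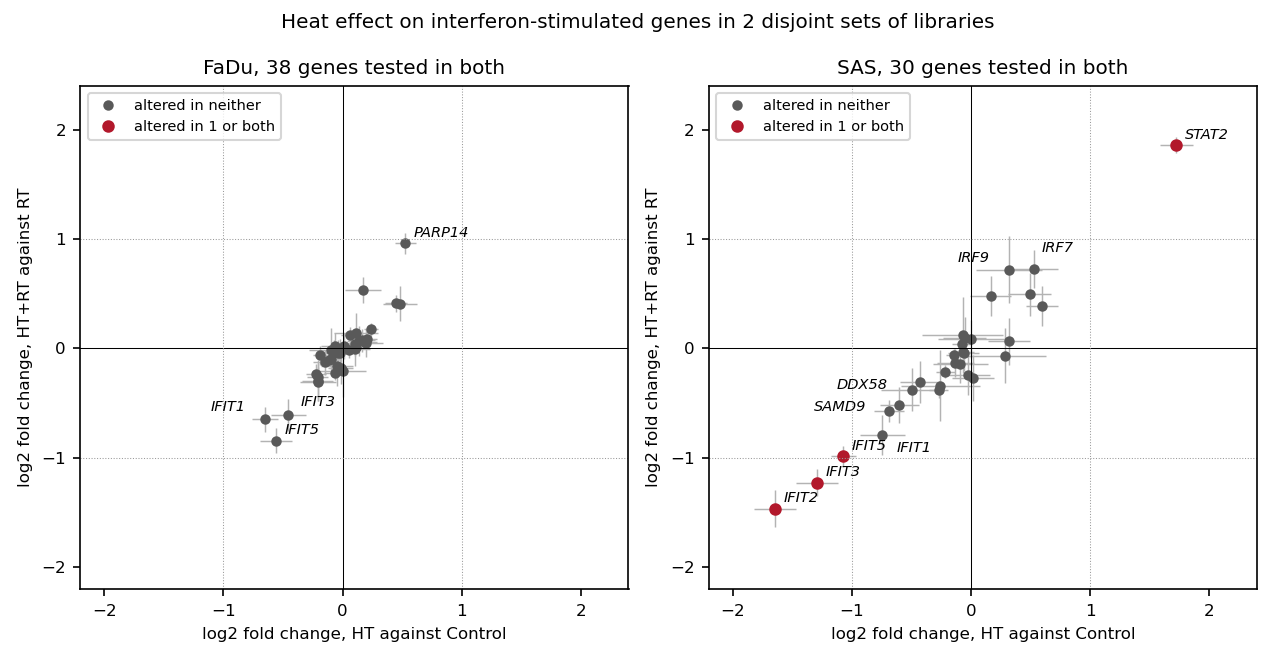
Log2 fold change of each ISG by HT against Control (horizontal axis) and by HT + RT against RT (vertical axis), which use separate libraries, in FaDu (left) and SAS (right), with bars of 1 SE and dotted lines at the threshold of 1. In SAS, STAT2 lies at the upper end and IFIT2, IFIT3 and IFIT5 at the lower end, and in FaDu no ISG tested in both comparisons is altered.

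The IFIT genes were lower in heated SAS spheroids. IFIT2 (ENSG00000119922) in SAS stood at 52.3, 38.3 and 32.8 CPM in Control, 44.5, 31.5 and 38.4 in RT, 15.8, 12 and 10.7 in HT and 17.6, 11.5 and 11.6 in HT + RT. Each heated library was below each unheated library. The mean was 41.1 ± 10.1 CPM in Control and 12.8 ± 2.62 CPM in HT (log2 fold change -1.65 ± 0.18 (SE), adjusted p = 3.41e-05), and the comparison of HT + RT with RT gave -1.46 ± 0.17 (adjusted p = 7.5e-05). IFIT2 in FaDu stood at 185, 181 and 182 CPM in Control, 229, 160 and 183 in RT, 214, 162 and 158 in HT and 198, 151 and 152 in HT + RT. These FaDu conditions overlapped, and the log2 fold changes were -0.02 ± 0.11 by HT against Control and -0.18 ± 0.14 by HT + RT against RT.

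IFIT3 (ENSG00000119917) in SAS stood at 51.6, 31.5 and 41.1 CPM in Control, 45.6, 35.0 and 43.8 in RT, 20.4, 14.1 and 14.96 in HT and 19.8, 14.95 and 17.1 in HT + RT. Again the heated libraries were all below the unheated ones. It fell from 41.4 ± 10.1 to 16.5 ± 3.399 CPM by HT (log2 fold change -1.30 ± 0.18 (SE), adjusted p = 0.000237), and the value by HT + RT against RT was -1.23 ± 0.13 (adjusted p = 2.76e-05). IFIT3 in FaDu stood at 474, 418 and 395 CPM in Control, 553, 422 and 446 in RT, 393, 270 and 262 in HT and 375, 286 and 263 in HT + RT. In FaDu the HT values were lower than the Control values, but with library 1 of HT next to the lowest Control value. The FaDu values were -0.46 ± 0.15 by HT against Control (adjusted p = 0.0634) and -0.61 ± 0.14 by HT + RT against RT (adjusted p = 0.0202).

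IFIT5 (ENSG00000152778) in SAS stood at 33.6, 31.8 and 28.4 CPM in Control, 32.6, 33.2 and 33.7 in RT, 14.5, 15.9 and 13.1 in HT and 16.6, 18.0 and 14.4 in HT + RT. The heated libraries formed a lower group with no overlap. IFIT5 was altered by HT against Control (log2 fold change -1.07 ± 0.11 (SE), adjusted p = 1.93e-05), but without SAS HT library 3 the value was -0.99 and missed the threshold, as did the value of -0.99 ± 0.10 by HT + RT against RT (adjusted p = 1.93e-05). IFIT5 in FaDu stood at 67.4, 61.5 and 62.5 CPM in Control, 80.5, 70.7 and 77.5 in RT, 54.2, 36.7 and 37.1 in HT and 49.7, 41.2 and 35.7 in HT + RT. Its heated FaDu libraries were also below the unheated ones, with -0.56 ± 0.14 by HT against Control (adjusted p = 0.0237) and -0.84 ± 0.12 by HT + RT against RT (adjusted p = 0.00167).

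IFIT1 in SAS stood at 11.2, 6.96 and 8.96 CPM in Control, 10.8, 7.86 and 8.99 in RT, 4.51, 5.32 and 5.96 in HT and 6.46, 4.42 and 4.77 in HT + RT. The level was low and the heated libraries lay under the unheated ones. The difference passed on adjusted p and missed the threshold on fold change, at -0.74 ± 0.19 by HT against Control (adjusted p = 0.013) and -0.79 ± 0.18 by HT + RT against RT (adjusted p = 0.00755). IFIT1 in FaDu stood at 416, 405 and 386 CPM in Control, 446, 422 and 413 in RT, 302, 236 and 219 in HT and 322, 253 and 233 in HT + RT. The heated FaDu libraries were also the lower ones, with -0.65 ± 0.11 by HT against Control (adjusted p = 0.00425). In the annotation LIPA overlaps IFIT1, IFIT2 and IFIT3 on the opposite strand. LIPA in SAS stood at 265, 226 and 199 CPM in Control and 226, 195 and 194 CPM in HT, which overlapped, and its part in the IFIT values was not tested.

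STAT2 (ENSG00000170581) was the ISG with the largest increase by HT among those tested in SAS. It stood at 30.4, 32.9 and 34.4 CPM in Control, 33.6, 33.8 and 28.9 in RT, 128, 82.8 and 104 in HT and 114, 110 and 115 in HT + RT. All heated SAS libraries were above all unheated ones. The mean was 32.6 ± 2.03 CPM in Control and 105 ± 22.8 CPM in HT (log2 fold change 1.72 ± 0.14 (SE), adjusted p = 2.67e-06), and HT + RT against RT gave 1.86 ± 0.075 (adjusted p = 1e-08). STAT2 in FaDu stood at 141, 129 and 131 CPM in Control, 158, 140 and 143 in RT, 130, 109 and 102 in HT and 139, 110 and 115 in HT + RT. FaDu HT overlapped with Control and HT + RT lay just below RT, and the values were -0.21 ± 0.088 by HT against Control and -0.26 ± 0.093 by HT + RT against RT. In heated spheroids STAT2 did not pass the test between the lines, as given above. IL23A lies beyond the end of STAT2 on the opposite strand and stood at 0.761, 1.20 and 0.648 CPM in SAS Control and 1.69, 1.57 and 1.68 CPM in SAS HT, and its part in the STAT2 values was not tested.

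IRF8 (ENSG00000140968) was close to 0 in unheated spheroids of both lines. In FaDu it stood at 0.105, 0.153 and 0.126 CPM in Control, 0.205, 0.266 and 0.314 in RT, 0.526, 0.784 and 2.53 in HT and 0.7999, 1.25 and 1.83 in HT + RT. In SAS it stood at 0.0544, 0.0570 and 0.0589 CPM in Control, 0, 0 and 0.222 in RT, 0.789, 0.782 and 0.325 in HT and 1.13, 1.13 and 0.673 in HT + RT. The heated libraries were above the unheated ones in both lines and varied widely among themselves in FaDu. For HT + RT against RT it passed the filter through the HT + RT libraries alone in both lines, so it was filter-selected and no p is given. The fitted log2 fold change was 2.32 in FaDu and 3.65 in SAS, where the RT libraries held 0, 0 and 4 counts and the value depends on the prior count. Over the SAS libraries, 35 counts in HT against 3 in Control gave a ratio of 11.1 with a counting interval of 3.51 to 56.6, and 52 counts in HT + RT against the same 3 gave 17.0 (5.52 to 85.3). IRF8 did not pass the filter of edgeR for HT against Control in either line.

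IFI27 (ENSG00000165949) had few counts in SAS. In SAS it stood at 0, 0 and 0.118 CPM in Control, 0.169, 0 and 0.111 in RT, 0.563, 0.261 and 0.651 in HT and 0.333, 0.822 and 0.622 in HT + RT. The SAS levels were under 1 CPM throughout, with every heated library above every unheated one. The 27 counts in SAS HT against 2 in SAS Control gave a ratio of 12.9 with a counting interval of 3.24 to 112, and the 33 counts in HT + RT gave 16.2 (4.15 to 140). In FaDu it stood at 1775, 1704 and 1698 CPM in Control, 1662, 1564 and 1726 in RT, 2079, 1980 and 1950 in HT and 1910, 1811 and 1813 in HT + RT. The FaDu HT libraries were above the Control libraries by a small margin, with 0.24 ± 0.062 (adjusted p = 0.029). Within SAS, IFI27 passed the filter of edgeR only for HT + RT against HT, where it was at 0.32 and not altered.

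PARP14 was the ISG nearest to the threshold among those higher in heated FaDu spheroids. It stood at 336, 335 and 372 CPM in Control, 308, 250 and 246 in RT, 440, 497 and 538 in HT and 491, 542 and 515 in HT + RT in FaDu. The heated libraries were above the unheated ones. HT against Control gave 0.53 ± 0.090 (adjusted p = 0.00491) and HT + RT against RT gave 0.96 ± 0.10 (adjusted p = 0.000364). In SAS it stood at 152, 127 and 131 CPM in Control, 132, 128 and 122 in RT, 138, 125 and 117 in HT and 142, 124 and 116 in HT + RT, with all conditions overlapping.

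**Figure D4:**
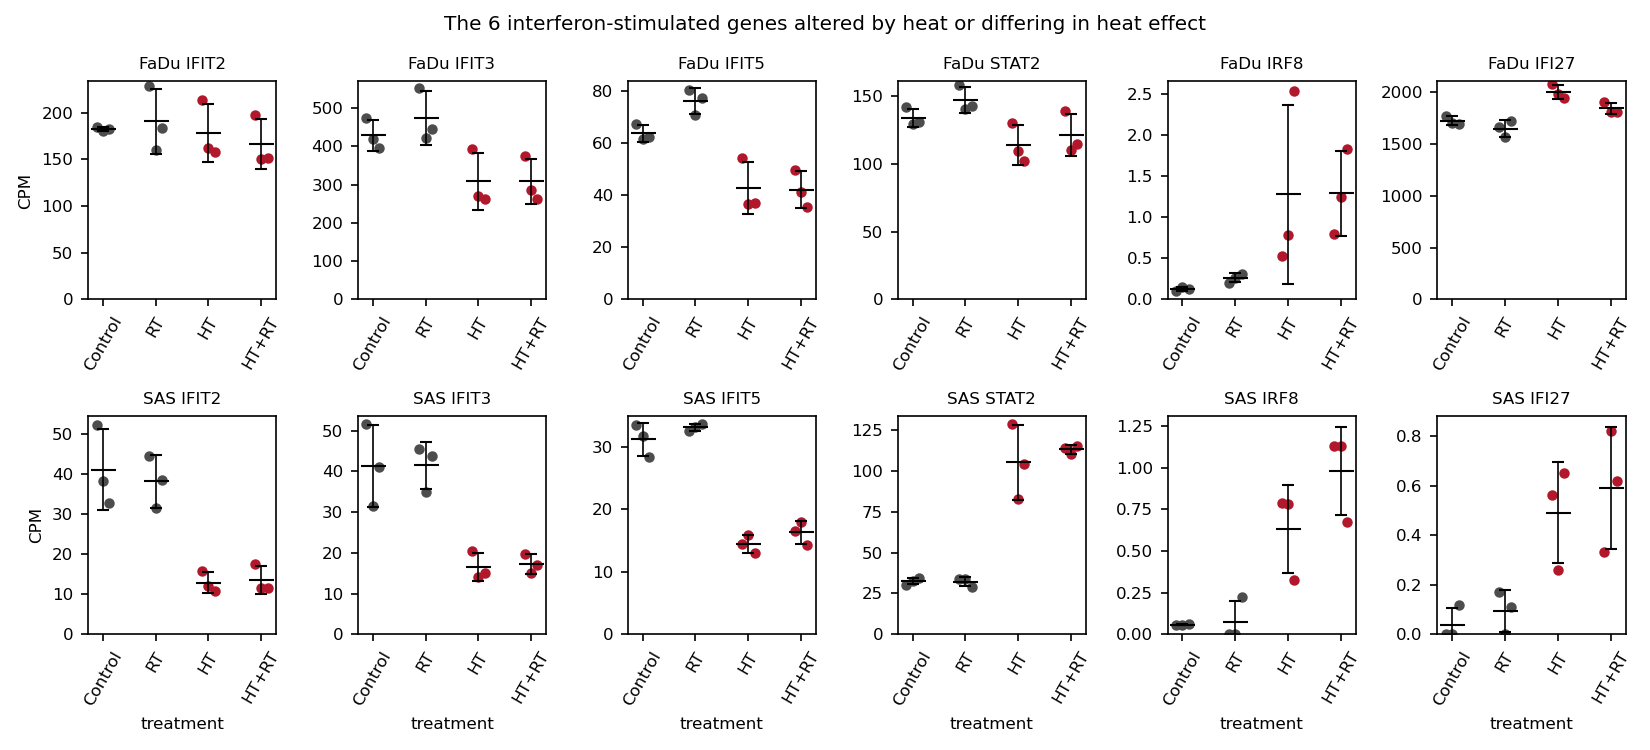
CPM (vertical axes, each from 0) of the 6 ISGs altered by heat or in an interaction, by treatment (horizontal axes), in FaDu (upper panels) and SAS (lower panels), 1 point per library with mean and SD, heated conditions in red. In SAS the heated libraries are lower for IFIT2, IFIT3 and IFIT5 and higher for STAT2, IRF8 and IFI27.

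The other roles are given by their ranges. By HT + RT against RT in FaDu, the log2 fold changes of the OAS and MX genes lay between -0.13 (OAS2) and 0.03 (MX1), those of the ISG15 group between -0.16 (HERC5) and 0.12 (UBE2L6), and those of the sensors between -0.23 (DHX58) and -0.02 (DDX58). In SAS the same comparison gave -0.34 (OAS2) to 0.09 (OASL), -0.13 (HERC6) to 0.48 (ISG15), and -0.52 (DDX58) to -0.04 (IFIH1) for those tested. The effectors lay between -0.31 (RSAD2) and 0.41 (SAMD9L) in FaDu and between -0.57 (SAMD9) and 0.49 (ISG20) in SAS, and the IFI genes with XAF1 between -0.22 (IFI44) and 0.18 (IFI27) in FaDu and between -0.15 (IFI44) and 0.39 (IFI35) in SAS for those tested. The PARP group lay between -0.20 (PARP9) and 0.96 (PARP14) in FaDu and between -0.38 (PARP9) and 0.04 (PARP14) in SAS, and CXCL10 was at -0.21 in FaDu. DDX58 in SAS stood at 19.9, 17.0 and 19.0 CPM in RT and 16.7, 10.6 and 10.8 CPM in HT + RT. It passed on adjusted p alone (log2 fold change -0.52 ± 0.16 (SE), adjusted p = 0.0354).

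HT + RT was compared with Control and with HT to describe the combined treatment. The comparison with Control shares its Control libraries with the RT and HT comparisons. In FaDu, 1 of 39 ISGs was altered by HT + RT against Control (IRF8, fitted at 3.34), against 5.72 percent of the 15896 genes tested, and 6 passed on adjusted p alone (IFIT1, IFIT3, IFIT5, IRF8, SAMD9L and PARP14), against 19.3 percent. In SAS, 4 of 32 were altered (IFIT2, IFIT3, STAT2 and IRF8), against 6.36 percent of 14938 genes, and 12 passed on adjusted p alone (these 4 with IFIT1, IFIT5, OAS3, IRF7, ISG20, SAMD9, IFI35 and PARP9), against 25.1 percent. The SAS values were -1.56 ± 0.19 for IFIT2, -1.21 ± 0.16 for IFIT3, 1.85 ± 0.071 for STAT2 and 3.99 for IRF8, and IFIT5 missed the threshold at -0.89 ± 0.11. In both lines IRF8 passed the filter of this comparison through the HT + RT libraries alone and was filter-selected. By HT + RT against HT, edgeR called 0 of 39 ISGs altered in FaDu, against 0 percent of the 16145 genes tested, with 0 at an unadjusted p under 0.05 (361 over all genes tested) and 0 by DESeq2. In SAS it called 0 of 33 altered, against 0 percent of 15341 genes, with 1 at an unadjusted p under 0.05 (673 over all genes tested) and 0 by DESeq2. Over all genes with a count, DESeq2 called 2 of 36355 altered in FaDu and 3 of 31186 in SAS. With the library number as a block, the counts over all genes were 3 in FaDu and 7 in SAS, with no ISG among them. The medians over the ISGs tested were 0.02 in FaDu and 0.07 in SAS, beside 0.00 over all genes tested in each.

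Whether the heat effect differed between the lines was tested as an interaction, the FaDu log2 fold change minus that of SAS. For HT against Control, 3 of 39 ISGs were altered (IFIT2, STAT2 and IFI27), against 2.74 percent of the 17219 genes tested, and 5 passed on adjusted p alone (these 3 with SAMD9L and PARP14), against 5.55 percent. For HT + RT against RT, 3 of 39 were altered (the same genes), against 3.36 percent of 17376 genes, and 6 passed on adjusted p alone (these 3 with SAMD9, SAMD9L and PARP14), against 7.59 percent. The difference was 1.66 ± 0.23 for IFIT2 by HT against Control (adjusted p = 0.000404) and 1.27 ± 0.25 by HT + RT against RT (adjusted p = 0.00575). For STAT2 it was -1.90 ± 0.18 (adjusted p = 1.56e-05) and -2.14 ± 0.13 (adjusted p = 2.33e-07). For IFI27, which passed the filter through its FaDu libraries alone, the fitted values of -3.24 and -2.55 rest on few SAS counts, and a different heat effect is not shown by them. IFIT3 (0.87 ± 0.26, adjusted p = 0.0617) and IFIT5 (0.55 ± 0.18, adjusted p = 0.111), altered by HT in SAS and not in FaDu, were not shown to differ between the lines. The medians over the ISGs were 0.14 and 0.01, beside 0.03 and -0.02 over all genes tested. Without the FaDu libraries numbered 1, the counts were 4 and 4, with SAMD9L added by HT against Control and PARP14 by HT + RT against RT.

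The rest of the interferon pathway was described with 6 lists that together hold 102 genes, namely 21 interferons, 9 receptors and kinases, 12 genes of sensing and induction, 8 negative regulators, 14 genes of antigen presentation and 38 further interferon targets. Between the untreated lines, 81 of the 102 were tested and 44 were altered, against 38.1 percent of all genes tested. Of the 44, 42 were higher in FaDu, against 21.2 percent of all genes tested, and 2 lower (TICAM1 and GBP3), and the median log2 fold change was 1.05 over the 81. IFNL1, ZBP1, SOCS1, IDO1, CXCL11 and CCL5 passed the filter through FaDu libraries alone, so these 6 were filter-selected, and 38 of the 74 genes that passed in both lines were altered (median 0.91). By list, 24 of 37 further targets tested (median 1.54), 10 of 14 antigen presentation genes (1.70), 5 of 9 receptors and kinases (1.01), 3 of 12 sensing genes (-0.07), 1 of 7 negative regulators (0.27) and 1 of 2 interferons were altered. The sensing genes and negative regulators lay below the share over all genes. After RT, HT and HT + RT, 42, 43 and 43 of 81 were altered between the lines, against 38.7, 40.1 and 40.4 percent of all genes tested. Of these, 5, 6 and 6 passed the filter through FaDu libraries alone and were filter-selected, and among the genes that passed in both lines 37 of 76, 37 of 74 and 37 of 75 were altered. The plot of pathway genes between the untreated lines shows ISGs with the highest median of the lists that had more than 2 genes tested.

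**Figure D5:**
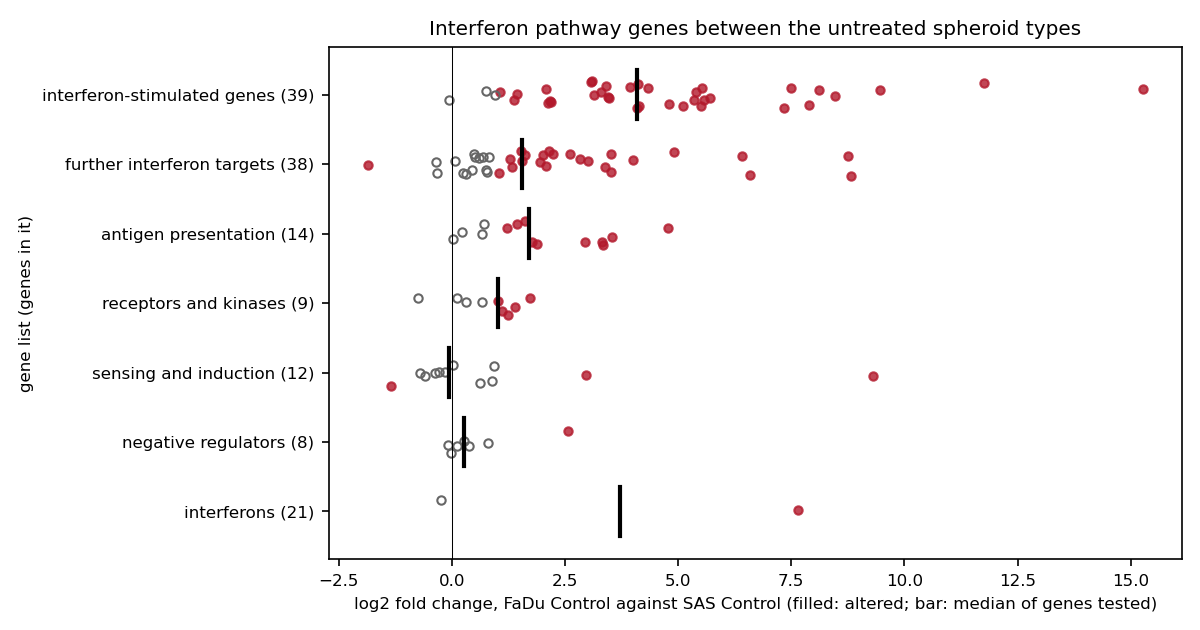
Log2 fold change between FaDu Control and SAS Control (horizontal axis) of the genes tested in each list (vertical axis), 1 point per gene, filled where altered, with a bar at the median. The median is 4.10 for the ISGs and between -0.07 and 1.70 for the pathway lists with more than 2 genes tested.

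Among interferon genes, 7 of 21 had no count in any library (IFNA4, IFNA6, IFNA7, IFNA10, IFNA14, IFNA17 and IFNA21), and IFNB1 had 1 count over the FaDu Control libraries and 0 over the SAS Control libraries. A count of 0 over the SAS Control libraries allows a level of up to 0.0567 CPM. IFNL1, a type III interferon and the most abundant of the 21 by the mean over the 24 libraries, stood at 1.89, 1.02 and 1.01 CPM in Control, 1.95, 1.76 and 2.001 in RT, 3.92, 2.51 and 2.16 in HT and 3.60, 2.81 and 2.88 in HT + RT in FaDu. In SAS it had 1 count, in HT library 3, so its rank rests on FaDu. The only interferon tested by edgeR within SAS was IFNE. IFNL1 was at least 22.6-fold higher in FaDu Control than in SAS Control. In FaDu the HT libraries lay above the Control libraries, and IFNL1 was altered by HT against Control (log2 fold change 1.16 ± 0.34 (SE), adjusted p = 0.0446) and by HT + RT against Control (log2 fold change 1.27 ± 0.28 (SE), adjusted p = 0.0136). Both calls use the Control libraries. By HT + RT against RT, with separate libraries, it was 0.71 ± 0.20 (adjusted p = 0.0373) and not altered. The calls also rest on single libraries. For HT against Control the adjusted p was 0.146 without Control library 2, 0.159 without Control library 3, and 0.1, 0.0807 and 0.0601 without HT libraries 1, 2 and 3. For HT + RT against Control it was 0.0599 without Control library 2 and 0.0640 without Control library 3.

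CCL5, a chemokine, stood at 51.4, 41.7 and 40.4 CPM in FaDu Control and at 0.218, 0.0570 and 0 CPM in SAS Control. TRIM22, an antiviral ubiquitin ligase, stood at 118, 113 and 112 CPM in FaDu Control and at 0.816, 1.37 and 1.47 CPM in SAS Control. Both were near 0 in SAS, with a fitted log2 fold change of 8.81 for CCL5 and of 6.58 ± 0.13 (adjusted p = 5.08e-11) for TRIM22, which passed the filter in both lines. CXCL11, a chemokine that binds the same receptor as CXCL10, stood at 3.57, 2.24 and 2.56 CPM in FaDu Control with no count in SAS Control. It was at least 48.8-fold higher in FaDu. ZBP1, a sensor of Z-form nucleic acid, stood at 4.78, 4.02 and 3.44 CPM in FaDu Control with no count in SAS Control, and was at least 71.1-fold higher in FaDu. As they passed the filter through FaDu alone, no test between the lines is given for CXCL11, ZBP1, IFNL1 or CCL5.

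In FaDu, 3 of 81 genes of these lists were altered by HT against Control, against 4.97 percent of all genes tested, and 3 of 81 by HT + RT against RT, against 5.39 percent, all higher. Over all genes, 682 of the 789 altered by HT against Control were higher, and 757 of the 857 altered by HT + RT against RT. On adjusted p alone, most pathway genes that passed in FaDu were lower. By HT against Control 22 passed (5 higher, 17 lower), against 17.6 percent, and by HT + RT against RT 21 (7 higher, 14 lower), against 19.3 percent. Over all genes, 1262 were higher and 1539 lower by HT against Control, and 1490 higher and 1574 lower by HT + RT against RT. In SAS 5 of 76 (4 higher, 1 lower) were altered by HT against Control, against 6.03 percent, and 4 of 76 (all higher) by HT + RT against RT, against 6.60 percent. Of the 5, SOCS1 and RTP4 passed the filter through 1 condition alone and were filter-selected. Over all genes in SAS, 797 of the 904 altered by HT against Control were higher, and 864 of the 999 altered by HT + RT against RT. On adjusted p alone, 24 of 76 passed in SAS by HT against Control (10 higher, 14 lower), against 23.6 percent. By HT + RT against RT 28 passed in SAS (12 higher, 16 lower), against 27.8 percent. Over all genes in SAS, 1823 were higher and 1717 lower by HT against Control, and 2126 higher and 2082 lower by HT + RT against RT. By RT against Control edgeR called 0 of 81 altered in FaDu (4 at an unadjusted p under 0.05) and 0 of 76 in SAS (4). Over all genes tested, 791 of 15552 in FaDu and 834 of 14680 in SAS had such an unadjusted p. For HT + RT against HT edgeR called 0 of 81 in FaDu (4) and 0 of 75 in SAS (6), beside 361 of 16145 and 673 of 15341 genes at that unadjusted p. The comparison of HT + RT with Control called 3 of 81 in FaDu, against 5.72 percent, and for SAS 4 of 76, against 6.36 percent, all higher. Of these 4, SOCS1 passed the filter through the HT + RT libraries alone and was filter-selected. Over all genes altered by HT + RT against Control, 808 of 910 were higher in FaDu and 861 of 950 in SAS. On adjusted p alone, this comparison gave 22 of 81 in FaDu (7 higher, 15 lower), against 19.3 percent. In SAS it gave 26 of 76 (10 higher, 16 lower), against 25.1 percent. Over all genes, 1513 were higher and 1554 lower in FaDu, and 2035 higher and 1712 lower in SAS.

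SOCS1 and SOCS3 encode inhibitors of JAK kinases that cytokines induce. SOCS3 in FaDu stood at 35.4, 28.6 and 30.8 CPM in Control, 134, 44.3 and 50.8 in RT, 300, 356 and 365 in HT and 322, 327 and 363 in HT + RT. SOCS3 in SAS stood at 38.4, 38.4 and 26.4 CPM in Control, 67.3, 64.2 and 42.4 in RT, 189, 171 and 105 in HT and 180, 176 and 124 in HT + RT. The heated libraries were above the unheated ones in both lines, and RT library 1 was the highest unheated FaDu library. In both lines every RT library was also above every Control library. By RT against Control the log2 fold change was 1.27 in FaDu and 0.76 in SAS, and the fit without a block called SOCS3 altered in neither. The SOCS3 result with the library number as a block is not given here, so whether RT altered SOCS3 is not decided. By HT against Control SOCS3 was altered in FaDu (log2 fold change 3.45 ± 0.11 (SE), adjusted p = 4.39e-07) and in SAS (log2 fold change 2.20 ± 0.20 (SE), adjusted p = 9.23e-06), and by HT + RT against RT it was 2.16 ± 0.37 in FaDu and 1.50 ± 0.17 in SAS. The SOCS3 interaction was altered by HT against Control (1.28 ± 0.26, adjusted p = 0.00856) and not by HT + RT against RT (0.64 ± 0.44, adjusted p = 0.492). SOCS1 in FaDu stood at 3.83, 2.95 and 2.52 CPM in Control, 4.52, 2.34 and 2.35 in RT, 10.8, 8.41 and 10.6 in HT and 9.71, 7.93 and 9.35 in HT + RT. SOCS1 in SAS stood at 0.761, 0.513 and 0.295 CPM in Control, 0.677, 0.891 and 0.610 in RT, 4.73, 4.22 and 3.47 in HT and 4.196, 4.37 and 3.32 in HT + RT. The heated libraries were again the higher ones, with 1.71 ± 0.20 in FaDu (adjusted p = 0.000702) and a fitted 2.99 in SAS by HT against Control, where it passed the filter through the HT libraries alone and was filter-selected, and 1.58 ± 0.25 and 2.47 ± 0.26 by HT + RT against RT.

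CGAS encodes the sensor of cytosolic DNA. In SAS it stood at 23.2, 24.9 and 22.1 CPM in Control, 21.7, 22.1 and 20.4 in RT, 113, 106 and 112 in HT and 116, 108 and 120 in HT + RT. In FaDu it stood at 50.9, 37.1 and 43.0 CPM in Control, 47.2, 35.3 and 36.1 in RT, 65.1, 75.2 and 98.3 in HT and 64.9, 92.1 and 99.0 in HT + RT. The heated libraries were above the unheated ones in both lines, by a wider margin in SAS. It was altered in SAS by HT against Control (log2 fold change 2.27 ± 0.073 (SE), adjusted p = 7.69e-10) and by HT + RT against RT (2.46 ± 0.071), and in FaDu by HT + RT against RT (log2 fold change 1.13 ± 0.17 (SE), adjusted p = 0.00255). The interaction was -1.35 ± 0.19 (adjusted p = 0.000617) by HT against Control and -1.36 ± 0.20 (adjusted p = 0.000559) by HT + RT against RT.

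GBP3, a guanylate-binding protein gene, was lower in FaDu than in SAS. In SAS it stood at 32.1, 31.5 and 26.8 CPM in Control, 33.1, 29.9 and 25.2 in RT, 59.4, 62.6 and 58.6 in HT and 61.7, 65.4 and 55.2 in HT + RT. In FaDu it stood at 7.66, 8.86 and 7.89 CPM in Control and 7.25, 7.37 and 8.18 CPM in HT. The heated SAS libraries lay above the unheated ones and the FaDu conditions overlapped. GBP3 was altered in SAS by HT against Control (log2 fold change 1.03 ± 0.082 (SE), adjusted p = 2.97e-06) and by HT + RT against RT (1.09 ± 0.10), close to the threshold, with values of 0.95 without Control library 3 and 0.99 without RT library 3. By HT + RT against Control it was 1.06 ± 0.090, and 0.98 without Control library 3.

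RTP4, a further interferon target that acts as a chaperone of membrane receptors, was the pathway gene altered downwards in SAS. It stood at 0.870, 0.627 and 1.36 CPM in SAS Control and at 0.394, 0.365 and 0.325 CPM in SAS HT. The HT libraries lay below the Control libraries at very low levels, with a fitted log2 fold change of -1.34. RTP4 passed the filter through the Control libraries alone and was thus filter-selected. The call was lost by DESeq2 (adjusted p = 0.151), with 4 groups of the line in 1 fit (0.0522) and without Control library 1 (0.0792), Control library 3 (0.171) or HT library 1, 2 or 3 (0.0825, 0.104 and 0.116). ZBP1 in SAS had no count in Control or RT and stood at 0.0563, 0.0522 and 0.217 CPM in HT and 0.266, 0.154 and 0.363 CPM in HT + RT. These levels rest on 6 and 14 counts and amount to at least 1.91-fold (HT against Control) and at least 4.76-fold (HT + RT against RT) above the floor of 3 counts.

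In the annotation 19 of the 39 ISGs overlap another gene, 16 of them on the opposite strand and 9 with a protein-coding gene. The library kit kept the strand of the RNA, but the strand setting used in counting is not given in the sources used here, so reads from overlapping genes cannot be told apart.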

How the data were processed

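The raw gene counts deposited by the authors were used as they are, and 24 libraries were joined from 7 count tables. The authors converted reads with bcl2fastq and tested genes with DESeq2. The aligner, the counting tool and the strand setting are not given in the sources used here, and the submitters' notes name the mouse build mm9 although all gene identifiers are human. Genes were named through GENCODE v29, where 602 of the 57500 were not found, which hold 0.0217 percent of the counts.

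The tests used edgeR 4.0.16 under R 4.3.3 (quasi-likelihood test, TMM scaling, limma 3.58.1 loaded by edgeR), after filterByExpr with a minimum count of 10, with Benjamini-Hochberg adjustment over all genes tested. DESeq2 1.42.0, RLE size factors in edgeR, no filter, 10 counts in every library, a replicate block, adjusted p alone, 4 groups of the type in 1 fit and leaving out each library were the alternatives. Libraries with the same number deviated together from their group means, with all 3 correlations over 0.1, in 5 of 5 FaDu comparisons and in 4 of 5 SAS comparisons, all but SAS HT against Control (0.029 to 0.149). That pairing comes from the values, as the labels do not say that a number marks 1 experiment. Leaving out all FaDu libraries numbered 1 was added after seeing the data. Figures were drawn with matplotlib 3.10.9 in Python 3.11.15, and counting intervals are exact binomial intervals from scipy 1.17.1. A fold against a group with 0 counts is a lower bound computed with 3 counts over that group.

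The ISGs and the other lists were chosen with earlier results of these data known, and 3 genes of the other lists are not reported here and enter no count. Genes were named by a rule. ISGs altered by a treatment or in an interaction were given with their values in every library. The 10 ISGs with the largest differences between the Control groups that did not overlap were given with their values in every Control library. Other ISGs were given by role, with the most abundant of each role and the one nearest a threshold as examples. Of the pathway lists, genes altered by a treatment and the 5 with the largest differences between the Control groups were named. SAMD9L, IFIT1, TICAM1 and the genes that passed on adjusted p alone were named after their values were seen.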

Additional observations from a re-analysis of the deposited data

Results flagged for a closer look

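For 12 values, the interaction of line and heating was past the threshold in edgeR, as log2 fold change in FaDu minus that in SAS. For HT against Control they were 1.66 for IFIT2, -1.90 for STAT2, -3.24 for IFI27, -1.35 for CGAS, 1.28 for SOCS3 and -1.07 for GBP3. For HT + RT against RT they were 1.27 for IFIT2, -2.14 for STAT2, -2.55 for IFI27, -1.36 for CGAS, -5.55 for ZBP1 and -1.01 for GBP3. SOCS3 was not altered by HT + RT against RT (0.64, adjusted p = 0.492). A positive value means that the level in heated relative to unheated spheroids was higher in FaDu than in SAS. IFI27 and ZBP1 passed the filter through their FaDu libraries alone. Their 3 values rest on 0 to 5 counts in a condition of unheated SAS spheroids and depend on the prior count of the fit, so they do not show a different effect of heating. ZBP1 had an adjusted p of 0.0331, and it was over 0.05 without FaDu HT + RT library 3 (0.0547), and without SAS RT library 1, 2 or 3 or SAS HT + RT library 1 or 3 (up to 0.0875). The GBP3 value for HT + RT against RT was under the threshold of 1 in size with DESeq2 (-0.98), RLE size factors (-0.98), no filter (-0.96), 10 counts in every library (-0.97) and the FaDu libraries numbered 1 left out (-0.98), and without FaDu RT library 2 (-0.92) or 3 (-0.95), FaDu HT + RT library 1 (-0.91), SAS RT library 3 (-0.92) or SAS HT + RT library 2 (-0.97). The 2 interactions use separate libraries in each line.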

How the results depend on the processing

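Counts of altered ISGs were made under 225 combinations of a comparison and an alternative, of which 207 were within 1.5 times the reported count and 18 were not. Of 762 values of single genes under alternatives (58 genes and comparisons), 728 stayed past the threshold in the same direction, 34 did not and 0 reversed. FaDu HT against Control went from 0 to 1 ISG (IRF8) under DESeq2, no filter, 4 groups of the type in 1 fit and FaDu libraries numbered 1 left out, and to 5 by adjusted p alone. Leaving out 1 library gave 0 to 1, with 1 without FaDu Control library 1 or FaDu HT library 1. FaDu HT + RT against Control gave 0 with 10 counts in every library and 6 by adjusted p alone. FaDu HT + RT against RT gave 0 with 10 counts in every library, 9 by adjusted p alone, 2 with FaDu libraries numbered 1 left out, and 1 to 2 on leaving out 1 library (2 without FaDu RT library 1). By adjusted p alone the counts were 9 for SAS HT against Control, 12 for SAS HT + RT against Control, 11 for SAS HT + RT against RT, and 5 and 6 for the interactions. A stricter filter tests fewer genes, which removes IRF8; the cause of the other shifts was not tested.

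With the library number as a replicate block, the counts of altered ISGs were 0, 0, 1, 1 and 0 in FaDu, 0, 4, 4, 4 and 0 in SAS, 35 in each of the 4 comparisons between the lines, and 3 and 3 for the interactions, as without it. The block changed no call of a named gene that was already past the threshold without it. Named genes not past the threshold without the block are not covered by that statement. Over all genes the block moved the counts from 1 to 28 (FaDu RT against Control) and 4 to 25 (SAS RT against Control). For HT + RT against HT it moved them from 0 to 3 (FaDu) and 0 to 7 (SAS). Deviations from the group means correlated across genes at 0.056 to 0.538 over 18 pairs of FaDu libraries with the same number (17 over 0.1) and at 0.029 to 0.271 over 18 in SAS (15 over 0.1). Between different numbers, 11 of 36 FaDu pairs were over 0.1 (highest 0.278) and 0 of 36 SAS pairs (highest 0.085). As a hint, 9 of 12 FaDu and 12 of 12 SAS libraries correlated best with a library of their own number.

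At 3 libraries per condition, depth limits IRF8, IFI27, XAF1, CXCL10 and ZBP1 in SAS, where a group held 0 to 4 counts. The spheroids were grown from carcinoma cells alone, and other lines or tumours were not measured.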
